A study of Mus musculus with 24 samples.

Results

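Decorin (Dcn), lumican (Lum), biglycan (Bgn), fibromodulin (Fmod), osteoglycin (Ogn), asporin (Aspn), prolargin (Prelp), dermatopontin (Dpt), apolipoprotein D (Apod) and tetranectin (Clec3b) are genes of fibroblasts and of the small proteoglycans that these cells secrete. They were taken by gene symbol from the raw counts of 24421 genes in mouse sciatic nerve, and all 10 were found once and held enough counts to be tested. Every mouse carried Nf1 flox/flox with PostnCre+, a Cre recombinase under the promoter of the periostin gene. Nf1 loss removes neurofibromin, a brake on RAS and ERK signalling, and by their labels the nerves carried plexiform neurofibroma, a tumour that grows within nerves. No nerve without the deletion was among the samples, so all groups share the genotype and the comparisons are between treatments of 1 week. The Combination group received LY3214996 with abemaciclib, the ERKi group LY3214996, an inhibitor of ERK1/2, the CDKi group abemaciclib, an inhibitor of CDK4/6, and the Vehicle group neither drug. Each group held 6 libraries, 24 in all. Whether each library is a separate mouse is not labelled, and the p-values therefore speak only of variation among these 24 libraries, part of which may be technical.

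Small leucine-rich proteoglycans are secreted proteins built around a row of leucine-rich repeats, and many, but not all, carry chondroitin, dermatan or keratan sulfate chains. They bind collagen fibrils and set their width and spacing, and several hold growth factors such as TGF-beta or engage cell surface receptors. In peripheral nerve they are made mainly by fibroblasts of the endoneurium and epineurium, which also lay down the collagen that makes up much of the bulk of a neurofibroma. Decorin, biglycan and asporin form one class of the family, lumican, fibromodulin and prolargin another, and osteoglycin belongs to a further one. Dermatopontin, apolipoprotein D and tetranectin are not members of that family: dermatopontin is a matrix protein that binds decorin, apolipoprotein D a secreted carrier of small lipids, and tetranectin a plasminogen-binding protein.

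Total counts per library ranged from 12096063 to 18518610 in the Combination group, from 14525128 to 24676846 for ERKi, between 15118837 and 19757307 for CDKi, and from 5391543 to 42321550 for Vehicle. Levels are given as CPM, the count scaled to library size by the TMM method. Of 30 other fibroblast markers 27 were detected well enough to be tested, but RNA of a whole nerve does not show which cells held a transcript, and fewer fibroblasts cannot be told apart from less RNA per fibroblast. Libraries also differed in RNA of other tissues. The mean of 10 neuron markers was below 6 on the log2 CPM scale in Combination 3 and 5, CDKi 3 and 5, and Vehicle 1 and 5, and at least 7.28 in the other 18. The liver gene Alb exceeded 100 CPM in ERKi 3, CDKi 1 and CDKi 3. The mean of 12 Schwann cell markers was 8.96 in Combination 2, 9.56 in Combination 3 and 8.48 in ERKi 3, against 9.85 to 10.59 in the other libraries.

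The 10 genes spanned a wide range of levels. Together they made up 0.796 ± 0.283% of all counts in Combination, 0.745 ± 0.223% in ERKi, 1.08 ± 0.22% in CDKi and 1.12 ± 0.20% in Vehicle (mean ± SD, n = 6 each). By mean CPM over the 24 libraries Apod ranked 7th of the tested genes, Dcn 23rd and Ogn 43rd. Per kilobase of exon, Apod stood first in Vehicle nerves at 2134 ± 637 CPM per kb, and its lowest library lay above the highest Ogn library in each group. Ogn (622 ± 161 CPM per kb), Dcn (496 ± 98.4) and Lum (341 ± 202) came next in Vehicle, and each overlapped its neighbour in this order. Bgn (51.7 ± 8.6) and Prelp (35.9 ± 4.8) followed and did not overlap in Vehicle, whereas they did in the 3 treated groups. The lowest levels were those of Aspn (3.86 ± 1.00), Clec3b (1.97 ± 0.58), Dpt (1.06 ± 0.51) and Fmod (0.651 ± 0.231), which overlapped from one to the next. Fmod, Dpt and Clec3b rest on 8 to 187 counts per library, above a floor of 3 counts but with large counting error.

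**Figure D1:**
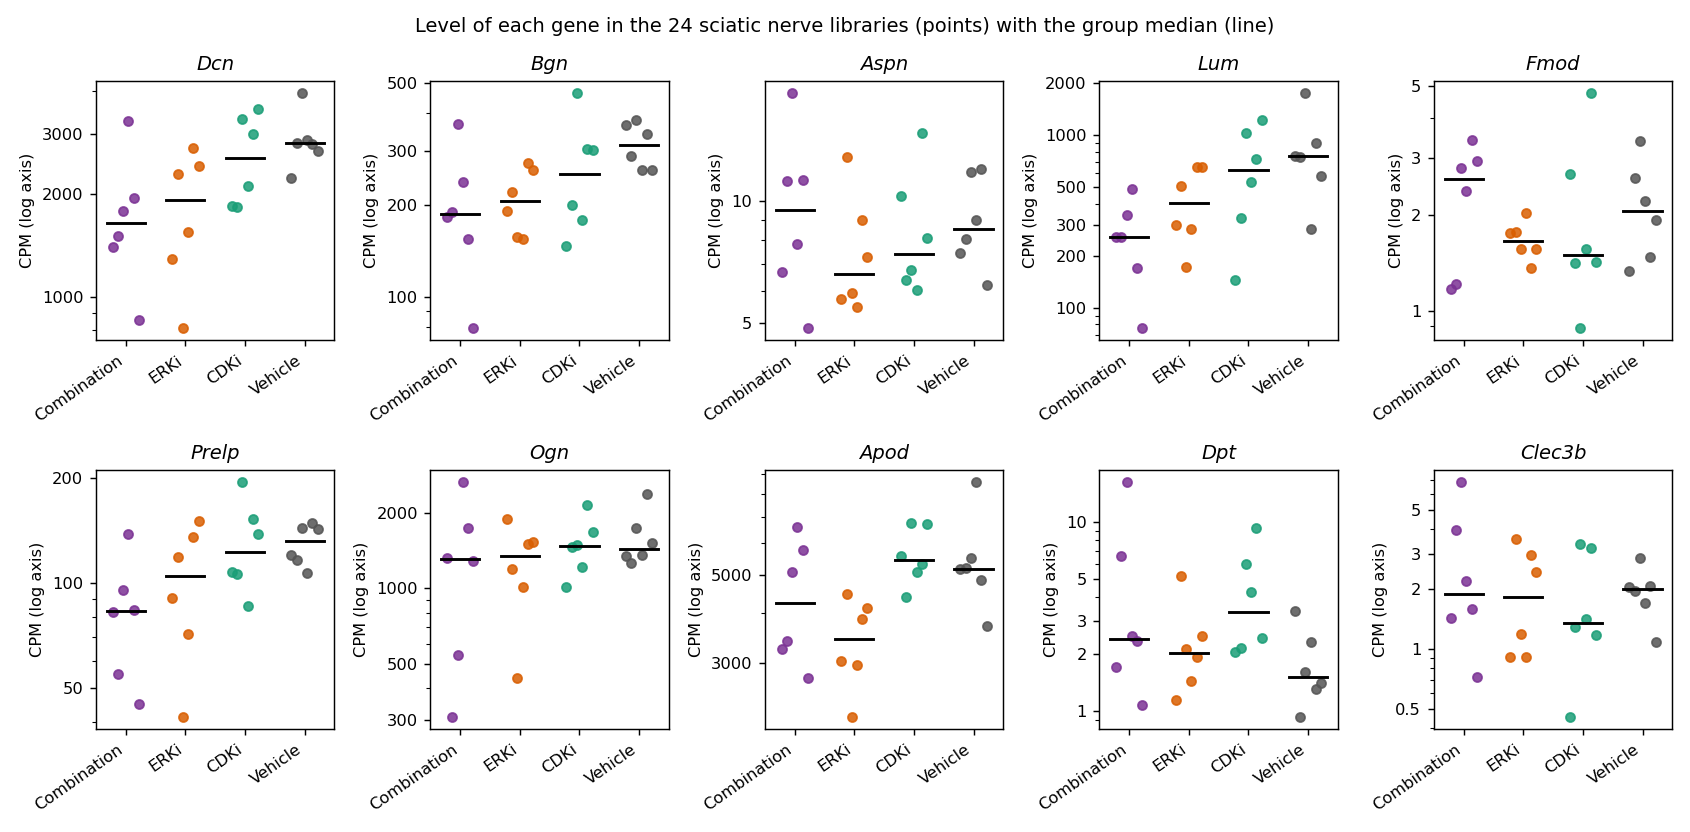
Level of each gene in CPM (log axis) in each of the 24 libraries, in groups of 6; points are libraries and lines group medians. For Lum all 6 Combination libraries lie at or below 485 CPM while 5 of 6 Vehicle libraries lie at or above 578 CPM, and for Dpt 1 Combination library stands at 16.4 CPM.

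Several of these genes lie next to each other in the genome. On GRCm38, Dcn (10:97479609-97518143, plus strand) and Lum (10:97565128-97572703, plus strand) are 47.0 kb apart and are followed by Kera and Epyc of the same family. Aspn (13:49544443-49567565) and Ogn (13:49608046-49624501) stand in a row with Ecm2 and Omd, and both overlap the span of Cenpp on the opposite strand. Of their exons Aspn shares 7 bases with Cenpp and Ogn 0, and Cenpp itself had 5 to 45 counts per library. Prelp (1:133910304-133921414, minus strand) and Fmod (1:134037254-134048277, plus strand) are 115.8 kb apart. Prelp shares 350 exon bases with the antisense gene Gm15851, which has no row in the table, and since the strand setting of the counting is not given, reads there could come from either gene. Bgn (X:73483602-73495933), Apod (16:31296192-31314808), Dpt (1:164796644-164824266) and Clec3b (9:123150946-123157432) lie apart from these rows of genes.

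Sequences around the start of 7 of the 10 genes were given by RefSeq (GRCm38.p6), each from 250 bases before to 50 bases after the start; Dcn, Lum and Clec3b had none. Those of Bgn, Prelp and Apod are shown because, of the 7 genes with a window, these 3 had an unadjusted p under 0.05 between the libraries with and without the ERK inhibitor, and that of Dpt because it had one between those with and without abemaciclib. They are written 5′ to 3′ on the strand of the gene: Bgn at chrX:73483351-73483650 (plus strand), Prelp at chr1:133921352-133921651 (minus strand), Apod at chr16:31314759-31315058 (minus strand) and Dpt at chr1:164796413-164796712 (plus strand). Capitals mark matches, on either strand, to 4 motifs: TATAAA, the AP-1 site TGANTCA, the SP/KLF site GGGCGG and the ETS core CCGGAA.
Bgn: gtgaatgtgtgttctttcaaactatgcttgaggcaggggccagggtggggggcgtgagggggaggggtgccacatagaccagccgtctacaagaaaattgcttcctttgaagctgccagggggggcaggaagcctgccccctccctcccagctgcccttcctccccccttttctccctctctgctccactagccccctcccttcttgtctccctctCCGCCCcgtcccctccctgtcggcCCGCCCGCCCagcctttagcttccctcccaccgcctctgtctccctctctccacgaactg
Prelp: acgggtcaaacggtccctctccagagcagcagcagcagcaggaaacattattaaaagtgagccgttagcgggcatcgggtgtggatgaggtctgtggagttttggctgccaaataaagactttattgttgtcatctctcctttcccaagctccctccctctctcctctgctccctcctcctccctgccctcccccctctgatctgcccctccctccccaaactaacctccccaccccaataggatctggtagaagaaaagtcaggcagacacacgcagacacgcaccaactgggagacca
Apod: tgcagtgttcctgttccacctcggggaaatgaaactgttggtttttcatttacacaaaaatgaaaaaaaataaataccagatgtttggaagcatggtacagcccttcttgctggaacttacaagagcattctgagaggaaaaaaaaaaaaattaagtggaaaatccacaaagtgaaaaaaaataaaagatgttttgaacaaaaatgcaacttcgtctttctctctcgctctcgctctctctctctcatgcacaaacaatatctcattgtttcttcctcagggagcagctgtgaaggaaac
Dpt: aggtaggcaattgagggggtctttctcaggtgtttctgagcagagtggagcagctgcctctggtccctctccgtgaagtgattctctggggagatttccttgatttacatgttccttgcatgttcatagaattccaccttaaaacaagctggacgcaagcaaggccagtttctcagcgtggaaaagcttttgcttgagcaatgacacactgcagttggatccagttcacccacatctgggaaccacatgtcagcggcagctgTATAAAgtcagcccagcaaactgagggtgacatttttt
Bgn held 3 matches to GGGCGG, all on the opposite strand, at -34, -10 and -6 from the start, the last pair overlapping in 1 stretch of capitals. Of 32851 windows of this length 35.7% held that motif. Dpt held TATAAA, which 13.6% of windows held, at +12. Prelp and Apod held none of the 4 motifs, and neither TGANTCA, found in 7.8% of windows, nor CCGGAA, found in 14.9%, occurred in the 7 windows. Aspn and Ogn, not shown, held 2 matches to TATAAA each and Fmod none.

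The Combination against Vehicle comparison asked how both drugs together left the nerve. Lumican, decorin, biglycan and prolargin averaged lower in Combination nerves, and dermatopontin averaged higher, each with an unadjusted p under 0.05. None of the 10 genes passed adjustment over all genes by edgeR's quasi-likelihood test, where 0.123% of all genes tested did (0.013% higher and 0.11% lower). At an unadjusted p under 0.05 there were 5 of 10, against 11.5% of all genes, and 4 of 10 in the lower direction, against 6.58%. DESeq2 called 1 of the 10, Lum, and 1.14% of all genes in its fit, and limma-voom called 0 of the 10 and 0.195% of all genes. The count of 5 was 2 without Vehicle 3 or Combination 6, 3 without Vehicle 5, Combination 1 or Combination 2, 2 with the mean of the adipocyte markers as a covariate or without the 6 libraries poor in neuron markers, and 1 without the deepest and shallowest libraries. The median log2 fold change of the 10 was -0.29, beside 0.036 over all genes tested, and 6 of 10 were below 0, beside 43.6%. That median was -0.16 without Combination 2, -0.53 without Combination 4 and -0.45 without the libraries poor in neuron markers.

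Lum, a keratan sulfate proteoglycan that orders collagen fibrils, had the widest gap. It had a lowest level of 76.0, a median of 257 and a highest level of 485 CPM in Combination nerves, against 285, 753 and 1752 CPM in Vehicle nerves. The groups overlapped, but 4 of 6 Combination libraries lay below every Vehicle library and all 6 lay below the Vehicle mean. The log2 fold change was -1.66 ± 0.49 SE (95% interval -2.68 to -0.63, unadjusted p = 0.00287, edgeR adjusted p = 0.158). DESeq2 gave -1.66 ± 0.46 and an adjusted p of 0.0301, the only call among these genes in any comparison. Over all alternatives the adjusted p of Lum here ran from 0.0301 to 0.678. Vehicle 4 held the lowest and Vehicle 3 the highest of the Vehicle values.

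Dcn, the most abundant proteoglycan gene of its class here, binds collagen and TGF-beta. Its Combination libraries had a lowest level of 858, a median of 1650.3 and a highest of 3269 CPM, against 2227, 2818 and 3965 CPM in Vehicle. In Combination 5 of 6 libraries lay below every Vehicle library, and Combination 4 lay within the Vehicle range. The difference was -0.69 ± 0.29 (unadjusted p = 0.0265, edgeR adjusted p = 0.344).

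Bgn, which also binds collagen and can signal through the receptors Tlr2 and Tlr4 when released, had a lowest, median and highest level of 79.1, 186 and 367 CPM in Combination, against 260.2, 314 and 378 CPM in Vehicle. Again 5 of 6 Combination libraries were below every Vehicle library, with Combination 3 the exception. Its difference was -0.64 ± 0.28 (unadjusted p = 0.0335, edgeR adjusted p = 0.373). Prelp, which ties collagen to basement membrane perlecan, showed the same layout. It had 45.04, 83.4 and 138 CPM as lowest, median and highest in Combination and 107, 132 and 148 CPM in Vehicle, a difference of -0.64 ± 0.27 (unadjusted p = 0.0289, edgeR adjusted p = 0.353). For Prelp the library inside the Vehicle range was Combination 4. A single library, Combination 6, held the lowest Combination value of Lum, Dcn, Bgn and Prelp alike, and also that of Aspn, Dpt, Apod and Clec3b. For Lum and Bgn it was the lowest of all 24 libraries.

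Dpt, whose product promotes collagen fibril assembly, pointed upward. It had a lowest level of 1.08, a median of 2.41 and a highest of 16.4 CPM in Combination and 0.929, 1.504 and 3.37 CPM in Vehicle, with 4 of 6 Combination libraries above the Vehicle mean. The difference was 1.49 ± 0.58 (unadjusted p = 0.0175, edgeR adjusted p = 0.295), but it rested largely on Combination 3. Without that library it was 0.65 with an unadjusted p of 0.204, and limma-voom, which gives outlying libraries less weight, gave 0.76. The adipocyte marker mean was 3.14 ± 0.55 log2 CPM in Combination and 1.82 ± 1.06 in Vehicle. With that mean as a covariate the Dpt difference was 0.80 (unadjusted p = 0.213). The median log2 fold change of adipocyte markers over Vehicle was 0.81 in Combination and 1.10 in ERKi, while that of Dpt was 0.41 in ERKi. The part of adipocyte RNA in the Dpt result was not tested. Pericyte and smooth muscle markers were also highest among Combination libraries in Combination 3, at 4.84 log2 CPM. Its part in the Dpt result, and that of endothelial markers (5.87 log2 CPM in Combination 3, the highest of all 24), was not tested.

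The other 5 genes gave differences from Vehicle whose intervals all held 0 in the Combination group. These were -0.30 for Apod (95% interval -0.77 to 0.18), -0.28 for Ogn (-1.06 to 0.49), 0.15 for Aspn (-0.46 to 0.75), 0.12 for Fmod (-0.60 to 0.84) and 0.53 for Clec3b (-0.51 to 1.57). The intervals of Ogn and Clec3b reached past a log2 fold change of 1 in size. Ogn, whose product acts on collagen fibril growth, spread from 308 to 2658 CPM in Combination and from 1258 to 2361 CPM in Vehicle. Its 3 lowest values of all 24 libraries, 308 CPM in Combination 2, 441 CPM in ERKi 3 and 544 CPM in Combination 3, were in the 3 libraries with the lowest Schwann cell marker means. In Combination 3, by contrast, Dpt (16.4 CPM), Clec3b (6.91 CPM) and Aspn (18.5 CPM) were the highest of all 24.

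**Figure D2:**
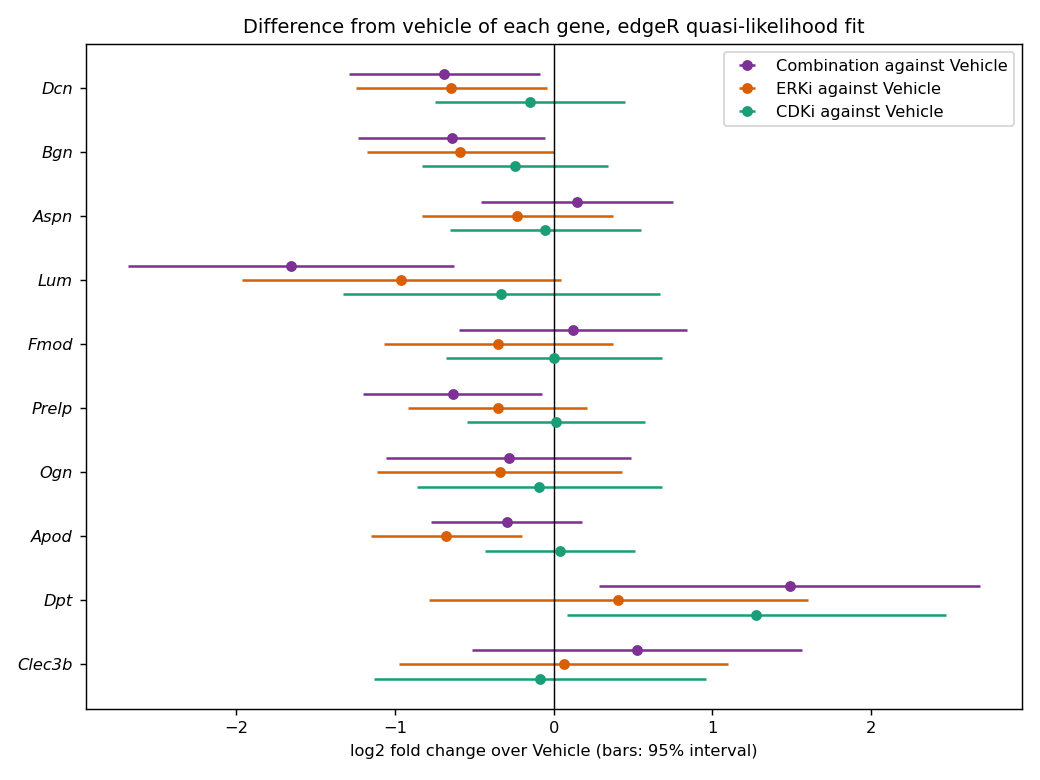
Log2 fold change over Vehicle of each gene (points) with its 95% interval from the edgeR fit (bars), for the Combination, ERKi and CDKi groups of 6 libraries each. The Combination interval lies below 0 for Lum (-2.68 to -0.63), Dcn, Bgn and Prelp and above 0 for Dpt; no gene passed adjustment over all genes.

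The ERKi against Vehicle comparison asked what the ERK inhibitor did alone. Apolipoprotein D, decorin and biglycan averaged lower with an unadjusted p under 0.05, lumican had the lowest log2 fold change, and none passed adjustment. By edgeR 0 of 10 were called, against 0% of all genes tested, and DESeq2 and limma-voom also called 0, against 0.0369% and 0% of all genes. At an unadjusted p under 0.05 there were 3 of 10, Dcn, Bgn and Apod, all in the lower direction, against 6.34% of all genes and 2.91% in that direction. That count was 1 without Vehicle 3, ERKi 1, ERKi 3 or ERKi 4, with the neuron or the adipocyte marker mean as a covariate, with a term for the number series of the sample titles, and without the neuron-poor, the liver-positive, or the deepest and shallowest libraries. It was 4 by DESeq2 and 2 by limma-voom. The median of the 10 was -0.35, beside 0.00024 over all genes tested, and 8 of 10 were below 0, beside 50%. That median was -0.56 with the adipocyte covariate and -0.16 in a fit that dropped the liver-positive libraries and used the neuron covariate.

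Apod had a lowest level of 2184, a median of 3447 and a highest of 4473 CPM in ERKi nerves, against 3703, 5177 and 8602 CPM in Vehicle nerves. All 6 ERKi libraries lay below the Vehicle mean and 3 lay below every Vehicle library. Its log2 fold change was -0.68 (unadjusted p = 0.00729, edgeR adjusted p = 0.672), with a 95% interval of -1.15 to -0.20. Dcn had 811, 1922 and 2731 CPM as lowest, median and highest in ERKi, a difference of -0.65 ± 0.29 (unadjusted p = 0.0364, edgeR adjusted p = 0.672). Bgn had 155, 206 and 274 CPM, a difference of -0.59 ± 0.28 (unadjusted p = 0.0498, edgeR adjusted p = 0.672), and 5 of 6 ERKi libraries were below every Vehicle library. Lum, at 171, 405 and 655 CPM, had the largest difference of the 10 in size but a wide spread, -0.96 ± 0.49 (unadjusted p = 0.0608, edgeR adjusted p = 0.672). It overlapped Vehicle more than Bgn did, with 1 ERKi library below every Vehicle library, and without Vehicle 3 the difference was -0.61.

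Of the remaining 6, Prelp (-0.35), Fmod (-0.35), Ogn (-0.34) and Aspn (-0.23) were below 0 and Dpt (0.41) and Clec3b (0.06) above, all with intervals that held 0. Neuron markers averaged 8.31 ± 0.68 log2 CPM in the ERKi libraries against 6.34 ± 2.60 in Vehicle. The Vehicle mean held Vehicle 1 at 2.07 and Vehicle 5 at 4.22. The other Vehicle libraries lay at 7.28 to 8.34, and the ERKi libraries at 7.75 to 9.63. With the neuron marker mean as a covariate the Bgn difference was -0.39 (unadjusted p = 0.152). ERKi 3, the library with liver RNA and the highest neuron marker mean, held the lowest ERKi value of Dcn, Lum, Prelp, Ogn and Apod, and without it the Dcn difference was -0.49 and that of Bgn -0.52.

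The CDKi against Vehicle comparison asked what CDK4/6 inhibition did alone. Dpt averaged higher with an unadjusted p under 0.05, and the intervals of the other genes all held 0. By edgeR, DESeq2 and limma-voom 0 of 10 were called, against 0%, 0.238% and 0% of all genes, and 1 of 10 had an unadjusted p under 0.05, against 3.12% of all genes. In the lower direction it was 0 of 10, against 0.91%, and 6 of 10 values were below 0, against 51.8%. Dpt had a lowest level of 2.05, a median of 3.36 and a highest of 9.29 CPM in CDKi, against 0.929, 1.504 and 3.37 CPM in Vehicle. The count of 1 was 0 without any 1 of Vehicle 2, 3, 5 and 6 and CDKi 3 and 5, and without the liver-positive or the deepest and shallowest libraries. It was also 0 with the adipocyte covariate and without the libraries poor in neuron markers. Every CDKi library lay above the Vehicle mean and 3 lay above every Vehicle library. The log2 fold change was 1.28 ± 0.58 (95% interval 0.08 to 2.47, unadjusted p = 0.0369, edgeR adjusted p = 1.00). The adipocyte marker mean was 3.82 ± 0.62 log2 CPM in CDKi and 1.82 ± 1.06 in Vehicle, and with it as a covariate the Dpt difference was 0.23 (unadjusted p = 0.747). Without the 6 libraries poor in neuron markers it was 0.84 (unadjusted p = 0.135). CDKi 5, highest in Dpt, was also highest of all 24 in Fmod (4.78 CPM) and in the adipocyte marker mean (4.92 log2 CPM).

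For the other 9 genes the CDKi differences ran from -0.33 (Lum) to 0.04 (Apod). Their intervals give the differences that are compatible with these data. That of Apod was -0.44 to 0.51, that of Dcn -0.75 to 0.45 and that of Prelp -0.55 to 0.58, whereas that of Lum reached from -1.33 to 0.67. CDKi libraries themselves spread widely for Lum, from 145 CPM in CDKi 1 to 1226 CPM in CDKi 6. Below every Vehicle library lay 3 of 6 CDKi libraries for Dcn and 3 for Bgn, while for Bgn 1 lay above every Vehicle library. The 3 comparisons with Vehicle share the same 6 control libraries, so their values stand side by side and are not independent.

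Set against a single drug, the Combination group asked what the second drug added. Against ERKi 0 of 10 genes were called (0% of all genes tested by edgeR) and 0 had an unadjusted p under 0.05 (9.34% of all genes, 3.61% in the lower direction), a count that was 2 without Combination 6 and 1 without ERKi 2, Combination 1, Combination 4 or Combination 5. That count was also 2 by limma-voom and 1 by DESeq2. The differences ran from -0.70 for Lum (95% interval -1.70 to 0.31) to 1.08 for Dpt (-0.09 to 2.25), and Dcn (-0.04) and Bgn (-0.06) were close to 0 with intervals of -0.64 to 0.55 and -0.64 to 0.53. Against CDKi 0 of 10 were called, beside 0.0065% of all genes, and 2 of 10 had an unadjusted p under 0.05, beside 7.07%, both in the lower direction, beside 4.71%. Those 2 were Lum at -1.33 ± 0.49 (unadjusted p = 0.0128, edgeR adjusted p = 0.493) and Prelp at -0.65 ± 0.27 (unadjusted p = 0.0259, edgeR adjusted p = 0.598). The count was 1 without CDKi 3, Combination 2 or Combination 6, 4 without Combination 4 or by limma-voom, and 0 without the libraries poor in neuron markers. Below 0 were 6 of 10 values, beside 43.8% of all genes. Lum averaged 265 ± 141 CPM in Combination and 665 ± 411 CPM in CDKi (SD, n = 6 each), and all 6 Combination libraries lay below the CDKi mean. DESeq2 and limma-voom called 0 in either comparison, where they called 0.291% and 0.039% of all genes against ERKi and 0.586% and 0.026% against CDKi.

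Between the single drugs, ERKi against CDKi, 0 of 10 genes were called by edgeR, DESeq2 or limma-voom (0% of all genes by each) and 1 had an unadjusted p under 0.05 (4.54% of all genes), in the lower direction (2.53%). The count was 2 without ERKi 2 or ERKi 5 and 0 in a fit that dropped the liver-positive libraries and used the neuron covariate. The 1 gene was Apod, with a mean of 3438 ± 855 CPM in ERKi and 5651 ± 938 CPM in CDKi (SD, n = 6 each). The log2 fold change was -0.72 ± 0.23 (unadjusted p = 0.00492, edgeR adjusted p = 0.770). The groups overlapped by a narrow margin, since the highest ERKi library had 4473 CPM and the lowest CDKi library 4400.45 CPM. In 9 of 10 genes the difference was below 0, where 51.6% of all genes were, with Clec3b (0.15) the exception.

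All 24 libraries were then used at once, with the 12 libraries given the ERK inhibitor, alone or with abemaciclib, set against the 12 without it. Here Lum, Dcn, Apod, Prelp and Bgn averaged lower with an unadjusted p under 0.05 in 5 of 10 genes, against 9.54% of all genes and 5.85% in that direction, and 0 of 10 passed adjustment (0% of all genes by edgeR). Lum averaged 347 ± 189 CPM with the inhibitor and 750.2 ± 443 CPM without it (SD, 12 libraries each), a log2 fold change of -1.14 ± 0.35 (unadjusted p = 0.00312, edgeR adjusted p = 0.268). Dcn averaged 1824 ± 745 and 2754 ± 667 CPM in that order, a log2 fold change of -0.59 ± 0.21 (unadjusted p = 0.00833, edgeR adjusted p = 0.336). Apod averaged 3956 ± 1319 CPM with it and 5576 ± 1278 CPM without it, at -0.51 ± 0.16 (unadjusted p = 0.00480, edgeR adjusted p = 0.300). For Prelp the means were 92.6 ± 36.9 and 130.5 ± 29.2 CPM in that order (-0.50 ± 0.19, unadjusted p = 0.0158, edgeR adjusted p = 0.401), and for Bgn 206 ± 73.4 and 291 ± 90.2 CPM (-0.49 ± 0.20, unadjusted p = 0.0218, edgeR adjusted p = 0.451). With the neuron marker mean as a covariate the Bgn value was -0.32, and without the 3 liver-positive libraries and with that covariate the Prelp value was -0.32. The count of 5 was 3 with the neuron covariate, with or without the liver-positive libraries, and 3 without the libraries poor in neuron markers. DESeq2 and limma-voom called 0 of the 10, against 0.364% and 0.026% of all genes, and the lowest adjusted p of the 10 by DESeq2 was 0.0640. The other 5 genes lay between -0.27 (Ogn) and 0.34 (Clec3b), with intervals that held 0.

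The 12 libraries given abemaciclib were likewise set against the 12 without it. Here Dpt alone had an unadjusted p under 0.05, 1 of 10 genes against 7.69% of all genes, and 0 of 10 passed adjustment (0% of all genes by edgeR). It averaged 4.73 ± 4.41 CPM with abemaciclib and 2.10 ± 1.18 CPM without it, a log2 fold change of 1.18 ± 0.40 (unadjusted p = 0.00779, edgeR adjusted p = 0.481). That value was 0.77 without Combination 3, 0.69 by limma-voom, 0.60 with the adipocyte covariate and 0.56 without the 6 libraries poor in neuron markers. The count of 1 was 3 by limma-voom and 0 with the adipocyte covariate or without those 6 libraries. The interaction asked, on the log scale, by how much the effect of ERKi differed with and without abemaciclib, that is, whether the drugs acted other than additively. By edgeR 0 of 10 genes were called and 0 had an unadjusted p under 0.05, where 0% and 3.69% of all genes did (2.09% in the lower direction). Of the 10 interaction values 3 were below 0, beside 50.2% of all genes. Its intervals were wide, for example -1.78 to 1.05 for Lum and -0.74 to 0.95 for Dcn. Departures from additivity within them are compatible with these data. DESeq2 and limma-voom called 0 of the 10 in both, against 0.0983% and 0% of all genes for abemaciclib and 0.606% and 0% for the interaction.

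No gene of the 10 had groups that did not overlap in any of the 6 pairwise comparisons, where 0.858% of all genes did not overlap between Combination and Vehicle, 0.24% between ERKi and Vehicle and 0.091% between CDKi and Vehicle. For the other pairs the shares were 0.481% between Combination and ERKi, 0.247% between Combination and CDKi and 0.162% between ERKi and CDKi. Group membership took up 40.0% of the variance of log2 CPM for Apod, 34.4% for Lum, 33.6% for Dcn, 29.9% for Prelp and 27.3% for Bgn, beside a median of 13.8% over all genes tested. For Dpt it was 21.1%, for Ogn 11.2%, and for Fmod, Aspn and Clec3b 6.37%, 6.23% and 4.99%. The 10 genes also varied more within groups than most: the SD within groups was 0.94 for Dpt, 0.93 for Lum and 0.87 for Clec3b on the log2 scale, and 0.40 for Apod, the steadiest, beside a median of 0.33 over all genes tested.

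**Figure D3:**
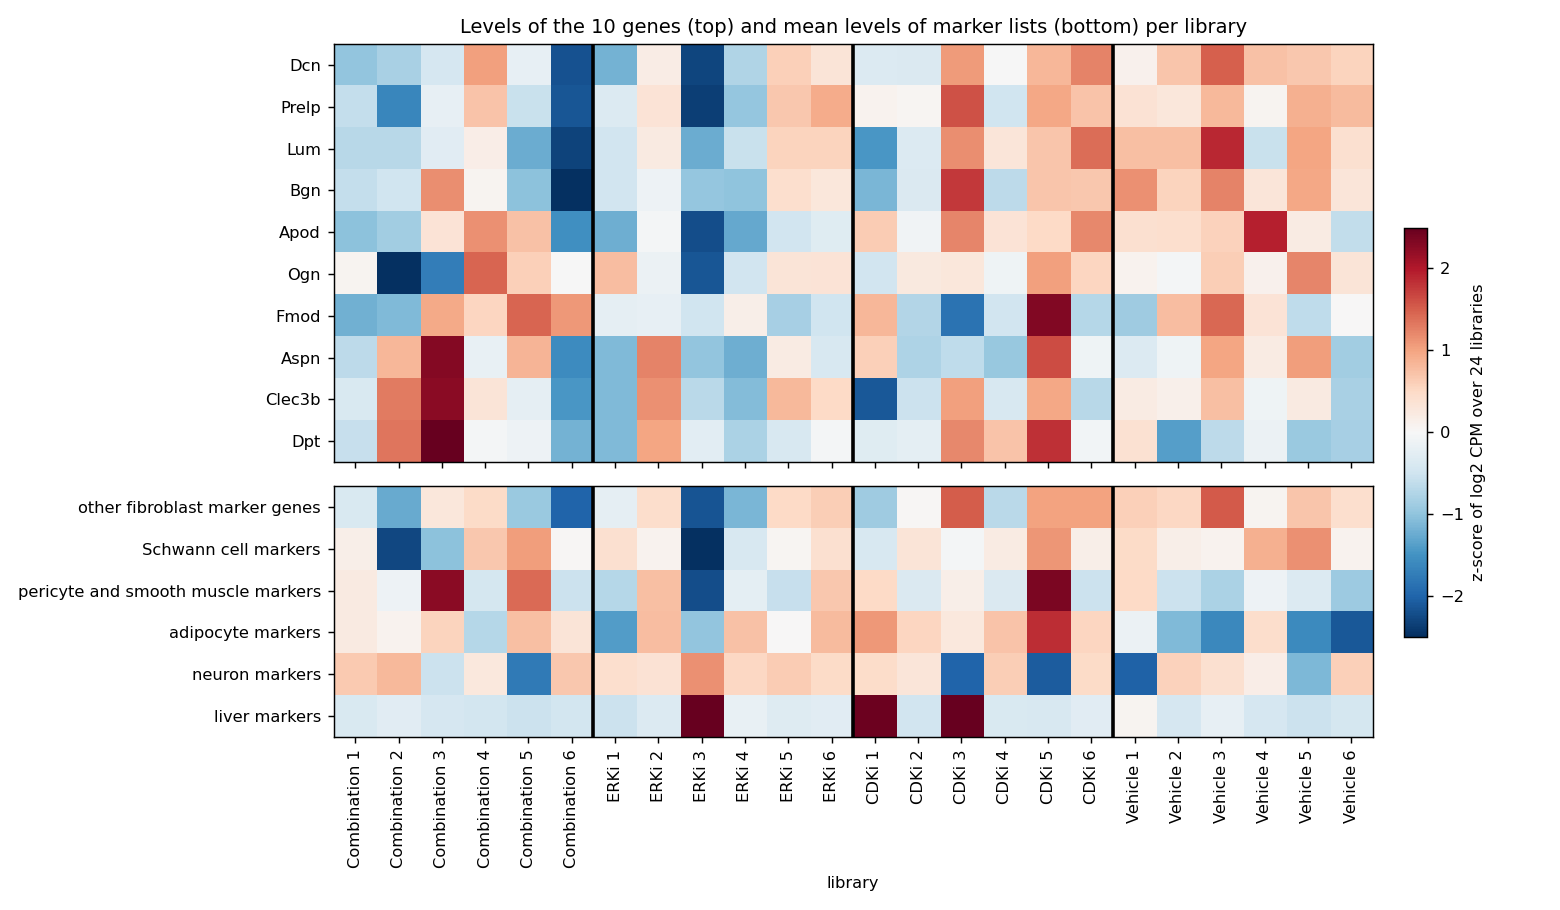
Level of each of the 10 genes (top) and mean level of 6 marker lists (bottom) in each library, as z-scores of log2 CPM over the 24 libraries (red high, blue low); vertical lines part the groups. ERKi 3 and Combination 6 are low for Dcn, Prelp and Apod, Combination 3 is high for Dpt, Clec3b and Aspn, and Ogn is lowest in Combination 2, ERKi 3 and Combination 3.

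The 10 genes were next compared with each other within the groups. After each library's log2 CPM had been taken as a deviation from its group mean, 17 of 45 gene pairs correlated over the 24 libraries with a Benjamini-Hochberg adjusted p under 0.05 in a permutation test within groups, and 38 of 45 had an r above 0. Over all 118341420 pairs of tested genes 49.2% had an r above 0, against 84.4% of the 45. An r of 0.512 or more, the lowest among the 17 pairs, was held by 10.1% of all pairs and by 42.2% of the 45, and no test was made of that difference. The closest pair was Dcn and Prelp (Pearson r = 0.874, adjusted permutation p = 0.00015; Spearman rho = 0.825, adjusted permutation p = 0.000579). It kept an r of 0.800 without the 2 libraries farthest from the median of Dcn, ERKi 3 and Combination 4, and of 0.888 and 0.817 within the 18 libraries rich and the 6 poor in neuron markers. Lum and Bgn had an r of 0.830 and a rho of 0.887 (adjusted permutation p = 0.00015 and 0.000225), an r of 0.750 without CDKi 1 and Combination 6, and of 0.881 and 0.890 in the same 2 sets of libraries. Dcn and Lum had an r of 0.796 and a rho of 0.813 (adjusted permutation p = 0.000225 and 0.00045) and an r of 0.771 without ERKi 3 and Combination 4. That r was 0.825 in the 18 libraries rich in neuron markers but 0.358 in the 6 poor ones. Clec3b ran with Bgn (r = 0.838, rho = 0.780, adjusted permutation p = 0.000375 and 0.00141), at 0.759 without Combination 6 and Combination 3 and at 0.758 and 0.913 in the rich and poor libraries. It also ran with Dpt (r = 0.829, rho = 0.805, adjusted permutation p = 0.00015 and 0.00045), at 0.758 without Combination 3 and CDKi 5 and at 0.768 and 0.854 in these sets. Libraries share depth and tissue makeup, which these values do not separate. Because genes such as Dcn, Prelp, Lum and Bgn moved together, the counts of genes with an unadjusted p under 0.05 are not counts of independent results.

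Neighbours in the genome were not always alike. Dcn and Lum, 47.0 kb apart, had an r of 0.796, but Prelp and Fmod, 115.8 kb apart, had one of -0.023 (adjusted permutation p = 0.934) and Aspn and Ogn one of -0.098 (adjusted permutation p = 0.818). Ogn was most distant from Dpt, with an r of -0.38 that missed the threshold (adjusted permutation p = 0.27). Fmod, at 13 to 112 counts per library, correlated with none of the other 9 past the threshold.

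**Figure D4:**
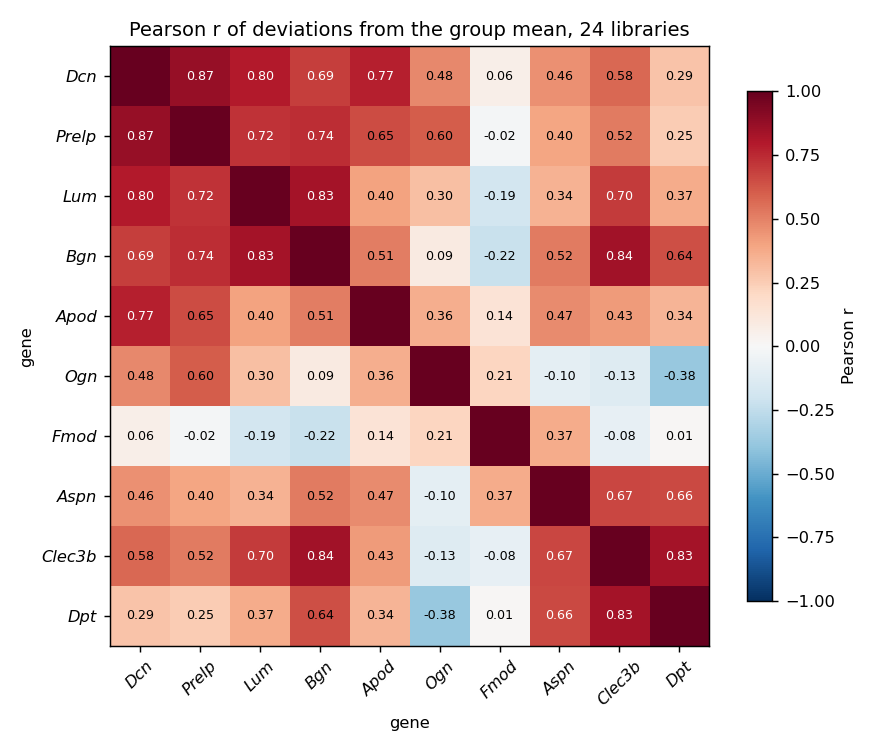
Pearson r between each pair of the 10 genes over the 24 libraries, from log2 CPM as deviations from the group mean (red positive, blue negative). Dcn has an r of 0.693 or more with Prelp, Lum, Bgn and Apod, Clec3b has 0.838 with Bgn and 0.829 with Dpt, and the lowest value is -0.38 for Ogn and Dpt.

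Of 14312 other named genes, those whose levels ran closest to the mean z-score of the 10 over the 24 libraries were Lpp (r = 0.900), which encodes a protein of cell adhesion sites, Peak1 (r = 0.898), a pseudokinase gene, Ecm2 (r = 0.896), the gene beside Aspn, C1s1 (r = 0.890), a complement protease gene, and Man1a (r = 0.886), a Golgi mannosidase gene. These r values are a description, since they are the highest of many and the libraries share group, depth and tissue makeup.

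The rest of the proteoglycan family and its partners were at hand for comparison. No gene of these lists passed the test in either direction in any of the 9 comparisons. Of 10 further small leucine-rich proteoglycan genes, 5 had enough counts (Epyc, Omd, Podn, Ecm2 and Tsku). In Combination against Vehicle all 5 had a log2 fold change below 0 (median -0.38), led by Epyc, the epiphycan gene on the Dcn cluster, at -1.89 ± 0.52 (edgeR adjusted p = 0.136), and Ecm2 at -0.52 (edgeR adjusted p = 0.315). In ERKi against Vehicle all 5 were below 0 too (median -0.52), with Epyc at -1.33 and Ecm2 at -0.52, while in CDKi 3 of 5 were (median -0.25). In CDKi 1 of the 5 had an unadjusted p under 0.05, where 480 of 15385 genes did, and 0 of the 5 in the lower direction. Tsku had the highest value there, 0.46, with means of 10.4 CPM in CDKi and 7.52 CPM in Vehicle. Kera, Chad, Nyx, Podnl1 and Optc had at most 32 counts in a library.

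Collagens bound by these proteins were mostly below 0. All 11 were below 0 in Combination against Vehicle (median -0.87), with Col6a2 at -1.55 ± 0.41 (edgeR adjusted p = 0.122) and Col1a1, a chain of type I collagen, at -1.82 ± 0.51 (edgeR adjusted p = 0.136). In ERKi against Vehicle 11 of 11 were below 0 (median -0.48; Col6a1 -0.65, Col5a2 -0.48) and in CDKi 10 of 11 (median -0.26; Col5a2 -0.27, Col3a1 -0.42). Over all genes tested 43.6%, 50% and 51.8% were below 0 in these 3 comparisons.

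Larger and cell surface proteoglycans were mixed. In Combination against Vehicle 15 of 22 were below 0 (median -0.10), with the versican gene Vcan at -1.59 ± 0.39 (edgeR adjusted p = 0.0966) and the syndecan gene Sdc1 at -0.70 ± 0.20 (edgeR adjusted p = 0.142). In ERKi 14 of 22 were (median -0.27; Sdc2 -0.75, Gpc3 -0.83), and in CDKi 14 of 22 (median -0.05; Gpc6 0.58, Sdc2 -0.38). Genes that build the sulfated sugar chains were below 0 in 15 of 25 in Combination (median -0.05), and the 2 with the smallest p were Chsy1, a chondroitin synthase gene, at -1.05 ± 0.26 (edgeR adjusted p = 0.0966) and Xylt1, whose product adds the first sugar of the chain, at -0.997 ± 0.259 (edgeR adjusted p = 0.117). In ERKi 16 of 25 were (median -0.10; B3gat3 0.39, Xylt1 -0.56) and in CDKi 14 of 25 (median -0.05; Slc35d1 0.31, Chpf2 0.26).

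Receptors and ligands that these proteins bind were below 0 in 7 of 14 in Combination (median -0.04), 12 of 14 in ERKi (median -0.15) and 9 of 14 in CDKi (median -0.0089). In Combination the smallest p values were those of Wisp1, a matricellular ligand gene, at -1.06 ± 0.29 (edgeR adjusted p = 0.123) and of the epidermal growth factor receptor gene Egfr at -1.05 ± 0.28 (edgeR adjusted p = 0.123). In ERKi they were Tlr4 (-0.49) and Tgfb1 (-0.33), and in CDKi Bmp4 (0.55) and Wisp1 (-0.35). Other fibroblast markers were below 0 in 23 of 27 in Combination (median -0.31) and in ERKi (median -0.36) and in 17 of 27 in CDKi (median -0.09). Mmp2, a gelatinase gene, was at -1.59 ± 0.42 in Combination (edgeR adjusted p = 0.123), while Ly6a, a surface marker of some fibroblasts and of endothelium, went the other way at 1.05 ± 0.29 (edgeR adjusted p = 0.132). In ERKi the fibroblast markers with the smallest p were Gsn (-0.72) and Efemp1 (-0.66), and in CDKi Fbln1 (0.94) and Sox9 (0.34).

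**Figure D5:**
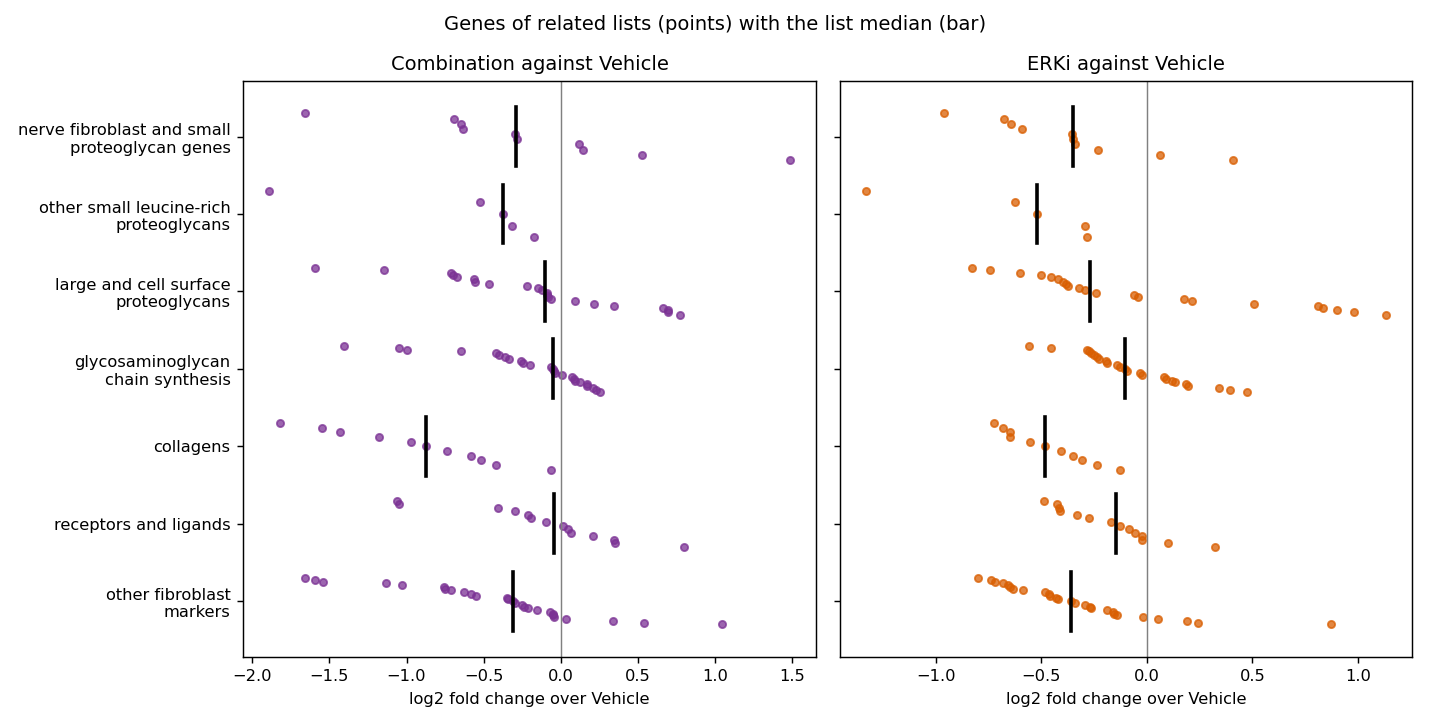
Log2 fold change over Vehicle of each tested gene (points) in the 10 genes and 6 related lists, with the list median (bar), for Combination (left) and ERKi (right). Every collagen lies below 0 in both comparisons, with medians of -0.87 in Combination and -0.48 in ERKi, whereas the 10 genes run from -1.66 to 1.49 in Combination.

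Markers of other cells were set beside these values, and 0 passed the test in any comparison with Vehicle. In Combination against Vehicle Schwann cell markers were below 0 in 8 of 12 (median -0.18), macrophage markers in 10 of 12 (median -0.18) and liver markers in 3 of 4 tested (median -0.59). Endothelial markers were above 0 in 12 of 12 (median 0.79), pericyte and smooth muscle markers in 7 of 10 (median 0.42), adipocyte markers in 12 of 13 (median 0.81), skeletal muscle markers in 13 of 15 (median 2.78), perineurial markers in 5 of 7 (median 0.24) and neuron markers in 10 of 10 (median 0.37). In ERKi against Vehicle the medians were -0.36 for Schwann cell, -0.27 for macrophage, -0.10 for perineurial, -0.09 for pericyte, 0.08 for endothelial, 0.99 for neuron, 1.10 for adipocyte, 2.17 for skeletal muscle and 4.30 for liver markers. In CDKi against Vehicle they were -0.11, -0.15, 0.23, 0.27, 0.27, 0.04, 1.87, 3.90 and 4.89 for the same lists in that order. The liver medians rested in part on few libraries. Ttr and Fgg reached 301 and 261 CPM in ERKi 3, with ERKi medians of 0.54 and 0.43 CPM. In CDKi 3 they reached 282 and 253 CPM, with CDKi medians of 0.29 and 0.56 CPM. Cyp2e1 differed, with medians of 59.0 CPM in ERKi, 58.1 CPM in CDKi and 6.37 CPM in Vehicle. The neuron and adipocyte means themselves differed between groups. Fits with them as covariates therefore cannot separate tissue makeup from treatment, since they also take up part of any treatment difference. The part of these shifts in the values of the 10 genes was not tested.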

How the data were processed

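RNA of 24 sciatic nerve libraries was sequenced. Per the labels' protocols, RNA was purified with a Qiagen RNeasy Plus kit and libraries were made with the Roche KAPA RNA HyperPrep kit after ribosomal RNA removal with QIAseq FastSelect, while the molecule label reads polyA RNA. The deposited table holds raw read counts by gene, 1 column for each library, with no scaling. The submitters' processing notes name build mm10 and the tools DESeq2, FastQC and STAR; which program counted the reads, on which annotation and with what strand setting, is not given in the sources used. Without strand, overlapping genes on opposite strands cannot be told apart.

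Libraries were grouped by the treatment label, and their numbers only name them. The counts were fitted in R 4.3.3 with edgeR 4.0.16: filterByExpr (minimum count 10, minimum total 15) left 15385 genes, libraries were scaled by TMM, and a robust quasi-likelihood model with a mean for each of 4 groups was fitted to all 24 libraries, with 20 residual degrees of freedom. The 9 comparisons were each pair of groups, the interaction and both main effects. Tests were two-sided, and Benjamini-Hochberg adjustment ran over all genes tested, with a threshold of 0.05. Standard errors are the log2 fold change over the square root of F, and intervals are at the 95% level of the fit's t distribution. Log2 CPM used a prior count of 2. The floor of 3 counts reflects counting error alone, because reads amplified without molecular identifiers can stem from the same molecule. Among 60 within-group pairs of libraries chi-square divided by its degrees of freedom was at least 19.8, which leaves no pair within sampling noise. The fit was also run on counts simulated from its own dispersions, with changes planted in the Combination group only. Those counts held no differences in RNA of other tissues, and the outcome is not given here.

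Correlations used permutation within groups (100000 resamples, smallest p 1e-05). Positions are from GENCODE M21 (GRCm38, the coordinates of mm10), where 23376 of 24421 symbols (95.7%) matched, and start sequences from RefSeq GRCm38.p6. Lengths per kb are of merged exons. The other settings were DESeq2 1.42.0, limma 3.58.1 (voom, weighted by sample quality), RLE and upper quartile scaling, other count filters, pairwise fits, marker covariates, a sex term and libraries left out. Sex was inferred for that term from Y-linked genes above 100 CPM. DESeq2 shares of all genes are of the 24421 genes in its fit, those of limma-voom of 15385, so the shares are not on the same set of genes. The members, lists, alternatives and rules were chosen with earlier results of these data known. All 10 members were tested in every comparison, but only some are named in the text for several of them. From each other list the rule takes up to 4 genes with the smallest p among those called, otherwise the 2 with the smallest unadjusted p, and the 5 genes most like the members. Lists are described by counts and medians, with no set test.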

Additional observations from a re-analysis of the deposited data

How the results depend on the processing

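The count of genes called among the 10 was 0 in all 9 comparisons and under every alternative run, except that DESeq2 called 1 in Combination against Vehicle (Lum, adjusted p = 0.0301). With no call in the fit reported, these counts say little about stability. The unadjusted counts moved more, and many of their changes stand beside the comparisons. Of 3480 recomputed log2 fold changes (15 settings and 24 fits that each left out 1 library), 165 took the other sign, in 38 of the 90 values, and the smallest unadjusted p of any of them was 0.147. Of the 46 values smaller than their standard error 33 did so. The cause was not tested. By limma-voom, values of the other sign were Fmod -0.32 and Prelp -0.10 in CDKi against Vehicle, in Combination against Vehicle Fmod -0.15, Aspn -0.15 and Clec3b -0.14, in Combination against ERKi Ogn -0.28, Aspn -0.058 and Clec3b -0.30, in Combination against CDKi Aspn -0.14 and Dpt -0.57, in the interaction Dcn -0.13, Bgn -0.079, Ogn -0.15, Aspn -0.048 and Apod -0.044, in abemaciclib against none Fmod -0.018, Aspn -0.034 and Clec3b -0.37. With RLE scaling, values of the other sign were Fmod -0.0022 in CDKi against Vehicle. With the neuron covariate, values of the other sign were Fmod -0.072 and Prelp -0.057 in CDKi against Vehicle, in Combination against ERKi Ogn -0.048, in ERKi against CDKi Aspn 0.035, in ERK inhibitor against none Aspn 0.10, in abemaciclib against none Clec3b -0.037. With the adipocyte covariate, values of the other sign were Dpt -0.16 and Clec3b -0.30 in ERKi against Vehicle, in CDKi against Vehicle Lum 0.10, Fmod -0.53, Ogn 0.17 and Apod -0.26, in Combination against Vehicle Fmod -0.20 and Aspn -0.21, in ERKi against CDKi Aspn 0.063, in the interaction Ogn -0.10 and Dpt 0.73, in abemaciclib against none Fmod -0.062, Ogn 0.12, Aspn -0.14 and Clec3b -0.10. With a sex term, values of the other sign were Fmod -0.035 in CDKi against Vehicle. With the title series term, values of the other sign were Ogn 0.024 in CDKi against Vehicle, in Combination against ERKi Ogn -0.16, in the interaction Dcn -0.0076 and Ogn -0.18. Without the neuron-poor libraries, values of the other sign were Fmod -0.48, Prelp -0.21 and Apod -0.068 in CDKi against Vehicle, in Combination against Vehicle Fmod -0.37 and Aspn -0.19, in Combination against ERKi Aspn -0.023, in Combination against CDKi Ogn 0.039 and Aspn -0.038, in abemaciclib against none Fmod -0.13, Ogn 0.012, Aspn -0.090 and Clec3b -0.36. Without the liver-positive libraries, values of the other sign were Ogn 0.029, Prelp -0.10 and Apod -0.021 in CDKi against Vehicle, in Combination against ERKi Ogn -0.12, in the interaction Dcn -0.067 and Ogn -0.15, in ERK inhibitor against none Aspn 0.0057. With liver-positive libraries out and the neuron covariate, values of the other sign were Aspn 0.030 in ERKi against Vehicle, in CDKi against Vehicle Fmod -0.040, Ogn 0.021, Prelp -0.11 and Apod -0.016, in Combination against ERKi Ogn -0.20, in ERKi against CDKi Aspn 0.12, in the interaction Dcn -0.076 and Ogn -0.22, in ERK inhibitor against none Aspn 0.15. Without the deepest and shallowest libraries, values of the other sign were Lum 0.074, Aspn 0.0010 and Clec3b 0.075 in CDKi against Vehicle, in the interaction Dcn -0.0061 and Dpt 0.029, in ERK inhibitor against none Fmod 0.013. Leaving out 1 library at a time changed the sign of the following, given as their range. In CDKi against Vehicle it was -0.40 to 0.16 for Fmod, -0.13 to 0.11 for Prelp, -0.58 to 0.041 for Lum, -0.25 to 0.059 for Aspn, -0.34 to 0.13 for Clec3b, -0.21 to 0.069 for Ogn and -0.040 to 0.23 for Apod. In the interaction it was -0.16 to 0.26 for Dcn, -0.19 to 0.37 for Ogn, -1.05 to 0.18 for Dpt and -0.082 to 0.42 for Bgn. In ERK inhibitor against none it was -0.16 to 0.080 for Aspn, -0.20 to 0.082 for Fmod and -0.12 to 0.48 for Dpt. In abemaciclib against none it was -0.18 to 0.095 for Ogn and -0.052 to 0.32 for Clec3b. In ERKi against Vehicle it was -0.19 to 0.19 for Clec3b. In Combination against ERKi it was -0.30 to 0.12 for Dcn, -0.27 to 0.28 for Ogn, -0.31 to 0.11 for Bgn and -0.030 to 0.72 for Clec3b. In ERKi against CDKi it was -0.12 to 0.40 for Clec3b, -0.52 to 0.041 for Fmod and -0.40 to 0.016 for Aspn. In Combination against CDKi it was -0.041 to 0.52 for Fmod, -0.54 to 0.0013 for Ogn, -0.075 to 0.40 for Aspn and -0.64 to 0.56 for Dpt. In Combination against Vehicle it was -0.12 to 0.29 for Aspn and -0.020 to 0.27 for Fmod. The pairwise fit was run for the 6 pairwise comparisons. A term for the number series of the sample titles was added after seeing the data. No paired analysis was possible because the sample titles carry no replicate numbers that the groups share. Over all genes the count called in Combination against Vehicle was 19 by edgeR, 30 by limma-voom and 279 by DESeq2. In other edgeR fits it was 0 with the adipocyte covariate or without the neuron-poor libraries, Combination 2 or Combination 5, 1 without Vehicle 2, 3 or 5 or Combination 6, 94 without Vehicle 4, and 214 with liver-positive libraries out and the neuron covariate. DESeq2 called 9 in ERKi and 58 in CDKi against Vehicle, where edgeR called 0. Depth limits Fmod, Dpt and Clec3b most, with 8 to 187 counts per library.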
